A study of Mus musculus with 8 samples.

Results

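GATA2 sites that were called in 3T3-L1 cells, had no overlapping peak in C3H10T1/2 cells and lay inside protein-coding genes numbered 549, of 4002 peaks in the lists of both lines. They are 27.4% of the 2001 peaks of 3T3-L1 that remained once 444 peaks in 2 dense regions of chromosome 10 were left out. The sites were chosen by the positions of the peaks in both lists: a site was kept when its centre fell between the boundaries of a protein-coding RefSeq gene of the mouse build mm10 and when it shared no base with a C3H10T1/2 peak. Absence from one list and position in a gene therefore chose these sites and are not results. Of the 1453 peaks of 3T3-L1 alone, 37.8% lay inside genes, beside 41.6% of the 548 shared peaks of 3T3-L1 and 44.6% of the 1017 peaks of C3H10T1/2 alone. The sites lay in 426 genes, which are called host genes below.

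3T3-L1 is a mouse fibroblast line committed to becoming fat cells, and C3H10T1/2 is a mouse embryonic fibroblast line that can become fat, bone, cartilage or muscle cells. The study did chromatin immunoprecipitation followed by sequencing (ChIP-seq) with a GATA2 antibody in both lines, obtained from ATCC and used at passages 4 to 6, with 2 ChIP libraries and 2 libraries of input chromatin for each line. The labels name no treatment, and immunoprecipitated DNA of individual experiments was pooled before a library was made. One list of peaks for each line was analysed, holding positions alone, so no value per library could be given, the variation between cultures could not be measured, and depth is unknown for either list. The lists hold no expression value, so the identity of the lines was not checked against marker genes.

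GATA2 is a zinc finger transcription factor that binds the letters GATA in DNA. In blood it maintains stem and progenitor cells, and in fat it holds preadipocytes back from maturing, in part by restraining Pparg and the C/EBP factors. Like other GATA factors it is often found at enhancers within introns, and an enhancer in one gene can act on a neighbouring gene.

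Sequence could be shown only for the sites that reached a promoter window, the 250 bases before to 50 bases after an annotated RefSeq start. Of the 549 sites, 5 did so, and 4 of them lay wholly within a window. The windows belonged to the host gene at Tmem200a and at Xpnpep2, which encodes a membrane-bound aminopeptidase. At Tcf20, a transcriptional coregulator, at Fbl, which encodes the ribosomal RNA methyltransferase fibrillarin, and at the homeobox gene Pknox2 they belonged to the long noncoding RNA genes Tbrg3, Gm31024 and Gm34652. The sequences are from the RefSeq promoter table of GRCm38.p6, the assembly behind mm10, and are written 5′ to 3′ on the strand of the window's gene. Capitals mark GATAA on that strand or TTATC, its reverse complement.
Tmem200a, chr10:26079041-26079132, minus strand: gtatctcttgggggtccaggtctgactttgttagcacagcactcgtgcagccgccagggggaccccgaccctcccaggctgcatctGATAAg
Tcf20, chr15:82898484-82898613, minus strand: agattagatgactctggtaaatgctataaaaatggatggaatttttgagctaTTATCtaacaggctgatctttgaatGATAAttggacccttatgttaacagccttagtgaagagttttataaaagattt
Fbl, chr7:28168864-28168968, minus strand: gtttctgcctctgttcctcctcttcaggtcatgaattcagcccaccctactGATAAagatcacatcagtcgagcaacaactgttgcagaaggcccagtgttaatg
Pknox2, chr9:36973880-36973996, plus strand, the part of the peak inside the window: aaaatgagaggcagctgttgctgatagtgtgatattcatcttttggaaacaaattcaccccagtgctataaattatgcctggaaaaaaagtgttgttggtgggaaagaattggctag
Xpnpep2, chrX:48108532-48108612, plus strand: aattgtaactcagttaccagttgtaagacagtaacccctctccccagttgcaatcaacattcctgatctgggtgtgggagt

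GATAA in either orientation occurred in 3 of these 5 sequences, once at Tmem200a and at Fbl and 2 times at Tcf20. In the same stretch of all 32851 promoter windows it occurred in 7.77% to 12.7%, with stretches that differed in length and in their place in the window. With 5 sequences this is a description, and the sequence of the other sites was not analysed here. The longer form AGATAA, reverse complement included, was found once, at Tcf20, against 11.2% of whole windows, and each such match also holds GATAA. The AP-1 motif TGANTCA, the C/EBP motif TTGCNNCAA, the RUNX motif TGTGGT and the NFI dimer motif, searched on both strands, had no match in the 5 sequences, and these occur in 7.81%, 2.08%, 16.8% and 0.0365% of whole windows. The TEAD motif GGAATG matched once, at Xpnpep2, against 14.7% of whole windows. The E-box CANNTG matched at Tmem200a, Fbl, Pknox2 and Xpnpep2, against 72.3% of whole windows. Whole windows are longer than these sequences of 81 to 130 bases and give a motif more places to occur. Their shares are therefore not a background of like length.

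The first comparison asked how the sites were spread over genes. The 426 host genes are 1.97% of 21631 protein-coding genes. They had a median length of 165 kb (quartiles 79.7 and 312 kb), while the median of all protein-coding genes was 17.3 kb. Of the host genes, 67.6% were at least 100 kb long, as were 11.2% of all genes. The part of genes with a site rose with length, from 5 of 7741 genes under 10 kb (0.0646%, 95% exact Clopper-Pearson interval 0.0210 to 0.151) to 110 of 557 genes of 300 kb or more (19.7%, 16.5 to 23.3). Per Mb of gene body there were 0.156 sites in genes under 10 kb, 0.255 in genes of 10 to 30 kb, 0.430 in genes of 30 to 100 kb, 0.716 in genes of 100 to 300 kb and 0.587 in longer genes. So long genes held more sites per base as well as more sites, although the longest class was not the densest. C3H10T1/2-only peaks rose likewise, from 0.218 per Mb in genes under 10 kb to 0.659 in genes of 100 to 300 kb, with 0.426 in longer genes. Shared peaks numbered 0.187, 0.259 and 0.152 per Mb in these 3 classes. Over all gene bodies, 1030 Mb in all, there was 1 site for every 1876 kb.

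**Figure D1:**
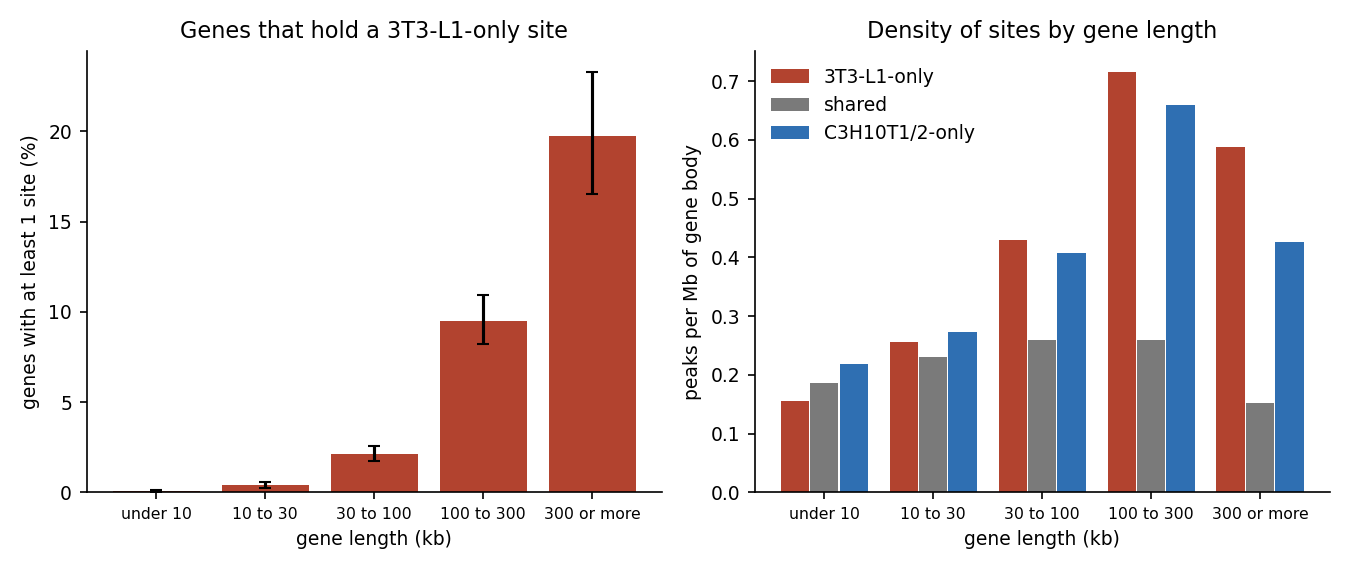
Share of protein-coding genes with at least 1 3T3-L1-only site in the body (left, bars with 95% exact intervals) and peaks per Mb of gene body for 3T3-L1-only, shared and C3H10T1/2-only peaks (right), both by gene length in kb. The share of genes with a site rises to 19.7% in genes of 300 kb or more, and the density of 3T3-L1-only sites is highest, at 0.716 per Mb, in genes of 100 to 300 kb.

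The sites were compared with the 228 peaks of 3T3-L1 that lay inside genes and were shared with C3H10T1/2, and with the 454 peaks of C3H10T1/2 alone inside genes. Host genes of at least 100 kb held 397 of the 549 sites (72.3%, 68.4 to 76.0) and 124 of the 228 shared peaks (54.4%, 47.7 to 61.0). The difference of 17.9 percentage points passed a two-sided Fisher's exact test (p = 4.72e-06, adjusted over 2 comparisons chosen after the data were seen). Of the peaks of C3H10T1/2 alone, 307 of 454 (67.6%, 63.1 to 71.9) lay in such genes, and the difference of 4.69 points did not pass (adjusted exact p = 0.111). The test thus separated the 3T3-L1-only sites from shared peaks but not from those of the other line. These p-values and all intervals cover counting error over peaks only, and neighbouring peaks are not independent. Shared peaks were also wider, with a median of 166 bp against 132 bp. Among peaks no narrower than the median of their list, 76.2% of the sites and 55.9% of shared peaks lay in such genes (adjusted exact p = 0.000118). The part of width in the difference was not itself tested.

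Most sites lay more than 10 kb from the boundaries of their host genes, which were long. The median host length per peak was 197 kb for the sites, 122 kb for shared peaks and 158 kb for C3H10T1/2-only peaks. Boundary comparisons below were not matched for host length. The median distance from a site's centre to the nearer boundary of its gene was 43.0 kb, 138 sites lay over 100 kb from both boundaries and 10 lay within 1 kb of one. At most 10 kb separated the nearer boundary from 91 of the 549 sites (16.6%, 13.6 to 19.96), from 57 of the 228 shared peaks (25%, 19.5 to 31.1) and from 96 of the 454 C3H10T1/2-only peaks (21.1%, 17.5 to 25.2). Neither difference passed, with p-values of two-sided exact tests (Fisher) adjusted over the 6 planned comparisons (p = 0.0533 against shared peaks and 0.219 against C3H10T1/2-only peaks). Within 1 kb, the 1.82% of the sites and the 6.58% of shared peaks did differ (adjusted exact p = 0.00782), and so did the shares within 10 kb among peaks no narrower than the median of their list (14.0% against 25.9%, adjusted exact p = 0.0362). P-values for other windows and widths were adjusted over the 6 tests of their own setting, not over the settings tried. Within 5 kb, the shares of 9.29% and 14.5% did not pass (adjusted exact p = 0.126). Against C3H10T1/2-only peaks, neither the shares within 5 kb (9.29% and 13.9%, adjusted exact p = 0.126) nor those within 1 kb (1.82% and 3.74%, adjusted exact p = 0.231) passed. The outer 25% at either end of the gene held 51.0% of the sites (46.7 to 55.3), 46.9% of shared peaks (40.3 to 53.6) and 54.8% of C3H10T1/2-only peaks (50.1 to 59.5), with an adjusted exact p of 0.313 for each comparison. Strand was known for 327 of the 426 host genes (76.8%), too few for a test by strand. In these genes, 201 of 421 sites (47.7%) lay nearer to the gene's start than to its end.

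**Figure D2:**
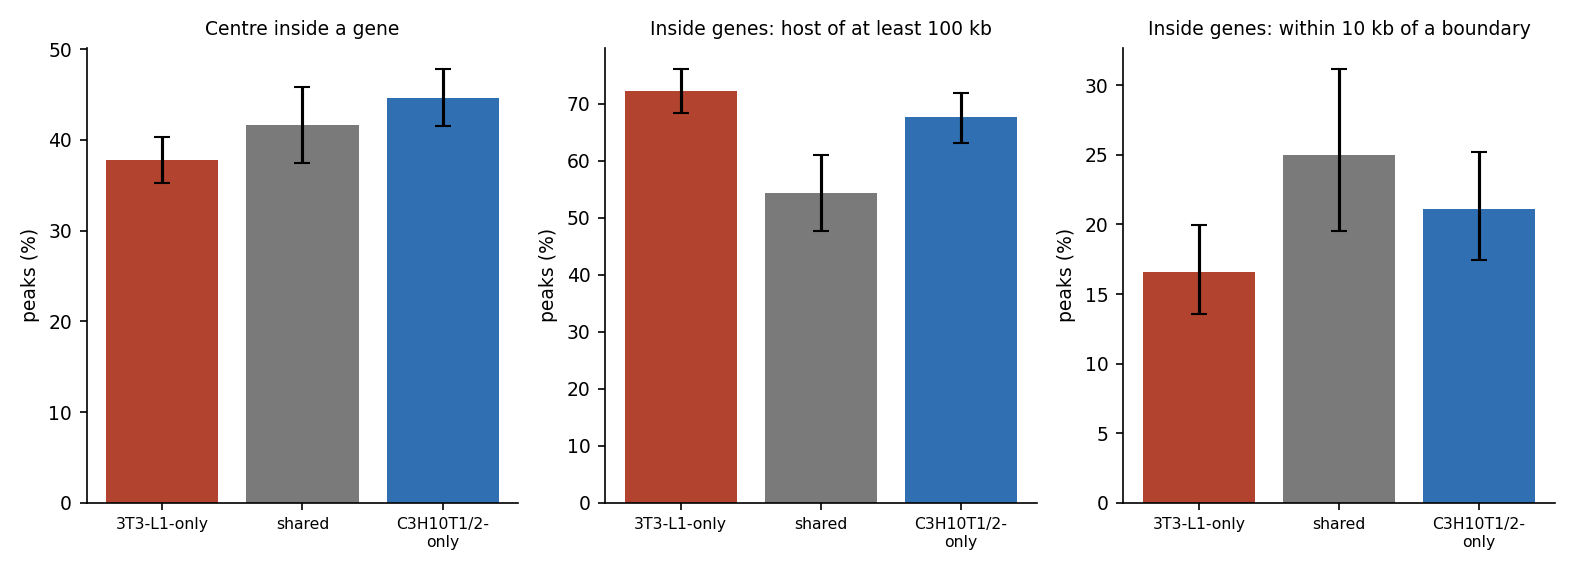
Percent of 3T3-L1-only, shared and C3H10T1/2-only peaks with the centre inside a gene (left), and, of the peaks inside genes, percent in host genes of at least 100 kb (middle) and within 10 kb of a boundary of the host gene (right). Bars show the share and lines its 95% exact interval over peaks, and the interval for long host genes of the 549 sites (68.4 to 76.0) lies above that of shared peaks (47.7 to 61.0).

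The sites were narrow and mostly far from any site of the other line. Their median width was 132 bp (range 50 to 369) and they covered 79.6 kb in all. At least as wide as 144 bp, the median of 3T3-L1 peaks outside the left-out regions, were 235 of the 549 sites (42.8%, 38.6 to 47.1) and 423 of the 904 peaks of 3T3-L1 alone outside genes (46.8%, 43.5 to 50.1), and this difference did not pass (adjusted exact p = 0.285). The nearest C3H10T1/2 peak lay a median of 418 kb from a site's centre, and 169 sites had none within 1 Mb. A C3H10T1/2 peak within 100 kb was found for 125 sites (22.8%, 19.3 to 26.5) and for 228 of the 904 peaks outside genes (25.2%, 22.4 to 28.2; adjusted exact p = 0.313). By chromosome, the density ran from 0.288 sites per Mb of gene body on chromosome 9 to 0.875 on chromosome 15.

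**Figure D3:**
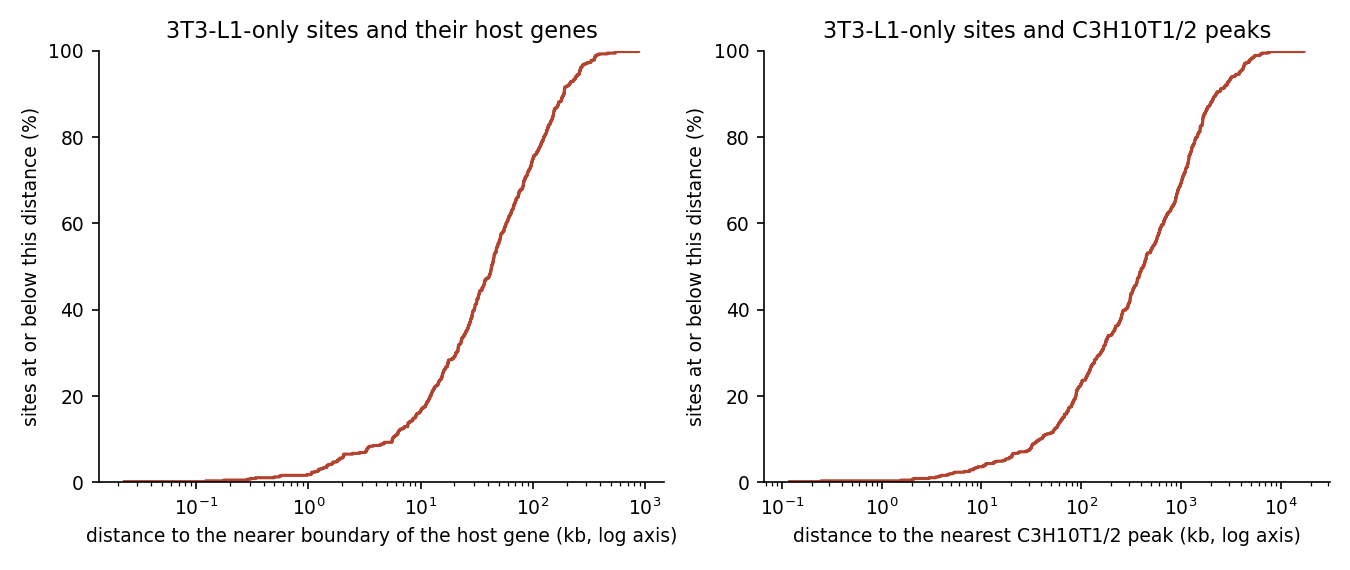
Cumulative share of the 549 3T3-L1-only sites inside genes, in percent, by distance in kb from the site's centre to the nearer boundary of its host gene (left) and to the nearest C3H10T1/2 peak centre (right), on log axes. The medians are 43.0 kb and 418 kb.

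The rule's limits cut through close neighbours in few cases. The sites nearest to a C3H10T1/2 peak without overlap lay in Sema3a, with 8 bases between the edges, in Trps1, with 63 bases, and in the splicing regulator gene Mbnl1, with 1406 bases. The shared peaks inside genes with the least overlap lay in Pdlim2, Phlpp1 and Ahnak2, with 21, 31 and 52 bases. At the other limit, the sites nearest to a gene boundary lay 23 bp inside Fbl, 122 bp inside Tmem200a and 177 bp inside Ppm1k. The nearest unshared peaks outside genes lay 43 bp from the monoamine oxidase gene Maoa, 87 bp from the kinase gene Frk and 142 bp from the cytokine receptor gene Il31ra.

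Of the host genes, 343 held 1 site, 60 held 2 and 23 held 3 or more. Sugct and Lrmda each held 7, the most of any gene. Sugct, which encodes a mitochondrial enzyme of glutarate metabolism (chromosome 13, 16857472 to 17694795), is 837 kb long, and all 7 of its sites lay between 143 and 285 kb from its lower coordinate. C3H10T1/2-only peaks lay in Sugct as well, 2 of them, outside that stretch. Lrmda, named for a role in melanocyte differentiation (chromosome 14, 22019504 to 23056093), is 1037 kb long and its sites were spread from 33.1 to 976 kb from its lower coordinate, with 3 C3H10T1/2-only peaks and 1 shared peak among them. Cwc22, a splicing factor gene of 65.2 kb on chromosome 2, held 6 sites between 27.8 and 54.5 kb from its lower coordinate, or 9.20 sites per 100 kb against 0.0533 for all gene bodies. The C3H10T1/2 peak nearest to any of them was 1631 kb away.

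The genes with 4 sites each were Col14a1, Scfd2, Thsd7a, Syn3, Cacna2d3, Hdac9 and Frmpd4. In Col14a1, which encodes a collagen that binds to fibrils of the matrix (chromosome 15, 55307644 to 55520803), the 4 sites lay between 109 and 161 kb from the lower coordinate, and one of them, at 55465123 to 55465442, was 320 bp wide. In Cacna2d3, which encodes an auxiliary subunit of calcium channels, one of the 4 also lay in the nested gene Lrtm1. In Frmpd4 the 4 sites formed 2 pairs, with centres 303 and 1105 bp apart.

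**Figure D4:**
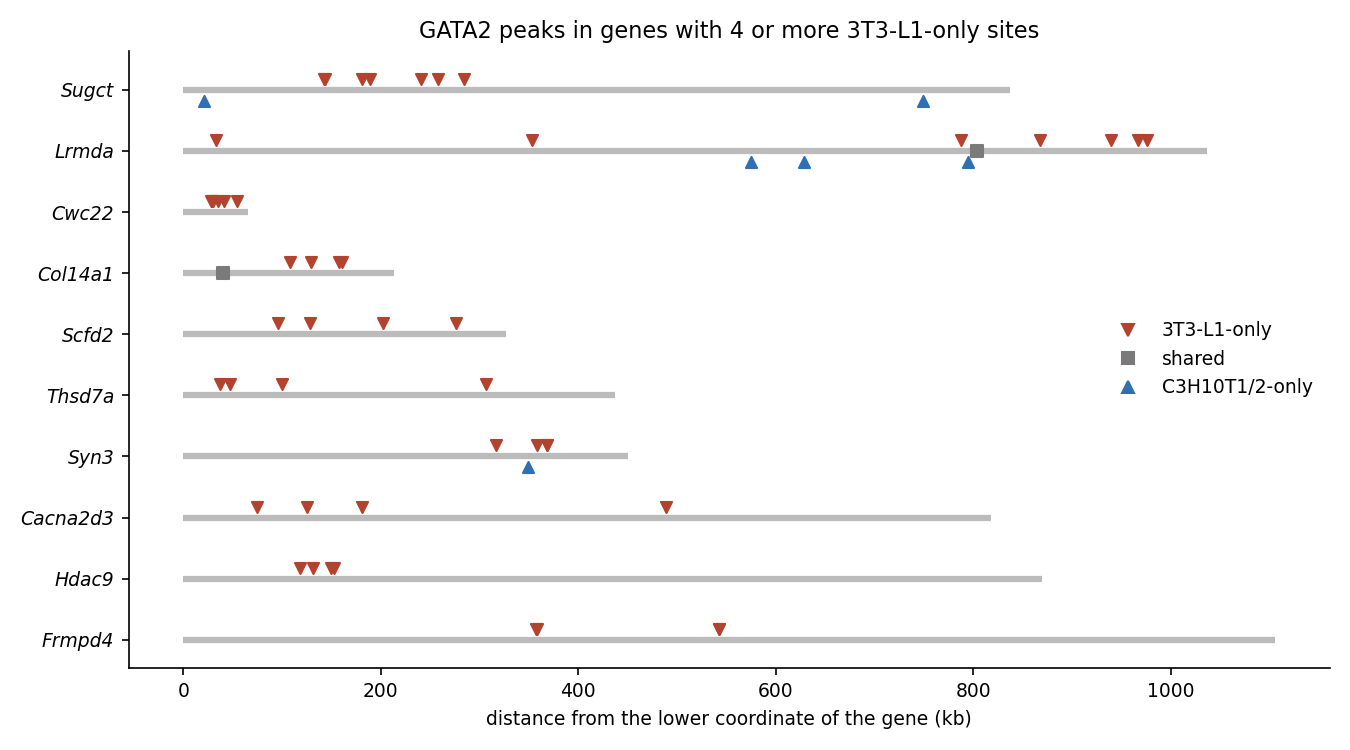
Positions of GATA2 peaks along 10 genes with 4 or more 3T3-L1-only sites, in kb from the lower coordinate of each gene (grey line, to scale). Red triangles are 3T3-L1-only sites, grey squares peaks shared by both lines and blue triangles C3H10T1/2-only peaks. The 7 sites of Sugct and the 4 of Hdac9 each lie in a part of the gene, while those of Lrmda span most of it.

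Several of these genes surround or adjoin another gene. Hdac9 encodes a class IIa histone deacetylase that restrains fat cell differentiation in mouse preadipocytes, and its body is known to hold enhancers of the neighbouring gene Twist1, which encodes a basic helix-loop-helix factor of mesenchyme. Its 4 sites lay between 34165372 and 34200515 on chromosome 12, 206 to 241 kb from Twist1 (33957671 to 33959831), and the widest measured 294 bp. The nearest C3H10T1/2 peak was 1046 kb from the nearest of them. Syn3, a synapsin gene, encloses Timp3, which encodes an inhibitor of matrix metalloproteinases (chromosome 10, 86300412 to 86349505). The 4 sites in Syn3 lay 16.3, 57.6, 67.2 and 67.6 kb from Timp3, nearer to it than to either boundary of Syn3, and a C3H10T1/2-only peak lay among them. Across all 549 sites, 33 (6.01%) were nearer to a boundary of another protein-coding gene than to those of their host.

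Dnm3, which encodes a dynamin, held 3 sites, and 1 of these lay beside a microRNA cluster. Dnm3os is a noncoding RNA gene inside Dnm3 (chromosome 1, 162217623 to 162225550) that carries the hairpins of miR-199a and miR-214, microRNAs known from mesenchymal tissues. The site at 162225913 to 162226023 began 363 bp beyond the higher boundary of Dnm3os, 2.44 kb from the Mir214 hairpin and 7.99 kb from the Mir199a-2 hairpin. The mature sequences are given because these are the microRNAs this site adjoins, with the seed (bases 2 to 8) in capitals, from the RefSeq table of GRCm38.p6.
mmu-miR-199a-5p: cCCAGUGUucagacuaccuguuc
mmu-miR-199a-3p: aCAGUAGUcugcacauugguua
mmu-miR-214-5p: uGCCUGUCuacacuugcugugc
mmu-miR-214-3p: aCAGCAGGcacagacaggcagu

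The 4 seeds differ. The other 2 sites of Dnm3 lay 17.0 and 20.01 kb below Dnm3os, and the C3H10T1/2 peaks of Dnm3 (1 alone and 2 shared sites) lay at least 177 kb from these sites, near the lower boundary. In all, 9 sites in 8 host genes had a microRNA hairpin within 10 kb, the nearest being Mir5110, 439 bp from a site in Bcas3. The other hosts were Epha4, F5, Gap43, Wars2, Ankrd10 and Anxa2. These genes were chosen after their positions were seen, and the count of 9 sites was not compared with other peaks.

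Some host genes also held a peak called in the other line. Of the 426, 342 (80.3%) held neither a C3H10T1/2-only nor a shared peak, 62 held a C3H10T1/2-only peak and 40 a shared one. The 342 and the 40 were not compared with the same counts over all genes and are a description. The 62 genes are 14.6% of the genes with a 3T3-L1-only site and 15.8% of the 393 genes with a C3H10T1/2-only peak, while 1.82% of all genes and 10.9% of genes of at least 100 kb held a C3H10T1/2-only peak. Besides Sugct, Lrmda, Col14a1 and Syn3, the hosts with many sites that also held other peaks included Trp63, Palld, Sema3a, Dnm3 and Samd12. Trp63 encodes the epithelial factor p63 and Palld the actin-bundling protein palladin. Each of these 5 genes held 3 sites.

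Since a gene can have several annotated starts, the nearest start can lie closer to a site than the gene's boundary. By that distance, the first sites lay at Tmem200a (35 bp), Ppm1k (112 bp), Xpnpep2 (153 bp), Hoxd8 (285 bp), F13a1 (304 bp), Sf3a1 (339 bp), Enpp3 (496 bp), Art3 (524 bp) and Pkig (721 bp). For Fbl, whose strand was not known, the site lay 23 bp from a boundary. Ppm1k encodes a mitochondrial phosphatase that switches on the breakdown of branched-chain amino acids, F13a1 a subunit of clotting factor XIII, Sf3a1 a component of the spliceosome and Pkig an inhibitor of protein kinase A. Hoxd8, a homeobox gene of body patterning, is 3.32 kb long, and the site at 74704749 to 74705051 on chromosome 2 is 303 bp wide. Among hosts with strand, 58 sites lay within 10 kb of an annotated start of the host, and the median distance was 57.8 kb. Distances to the starts of other genes were not measured.

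The 10 widest sites measured 294 to 369 bp. The widest lay in Prune2 (chromosome 19, 17159821 to 17160189). Next came Col14a1, Cyp7b1, which encodes an oxysterol hydroxylase (318 bp), Glis3, a zinc finger factor of pancreatic islets and kidney (317 bp), and Phex, whose product regulates phosphate and bone mineral (315 bp). Exoc2 of the exocyst complex (311 bp), the glucocorticoid-induced kinase gene Sgk1 (309 bp), Hoxd8, the leukocyte tetraspanin gene Cd53 (298 bp) and Hdac9 completed the set. Cyp7b1 held 3 sites, 1201 to 1326 kb from the nearest C3H10T1/2 peak.

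Gene lists of pathways that bear on these cells were read against 2 backgrounds: 1.97% of all protein-coding genes held a site, as did 11.9% of the 2427 genes of at least 100 kb. Over the 16 lists, 61 of 608 genes (10.0%) held a site. No list was tested. The lists differ in gene length, so the median length is given beside each count.

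Among adipogenesis genes, with a median length of 26.4 kb, 5 of 31 held a site (16.1%, 5.45 to 33.7): Pparg, Ebf2, Ebf3, Ppargc1a and Retsat. At least 100 kb long were 11 of the 31 genes and 4 of the 5 hosts. Pparg encodes the nuclear receptor that drives fat cell formation, and its 2 sites, at 115452749 to 115452898 and 115463053 to 115463218 on chromosome 6, lay 10.3 kb apart, 30.8 and 41.1 kb from the nearest annotated start of the gene. Ebf2 and Ebf3 encode early B cell factors, of which Ebf2 marks brown fat precursors, and their sites measured 283 and 222 bp. Ppargc1a encodes a coactivator of mitochondrial and thermogenic genes, and its site lay 56.0 kb from the nearest annotated start. Retsat encodes retinol saturase, a target of Pparg that promotes adipogenesis in 3T3-L1 cells, and at 8.89 kb it was among the shortest hosts. None of the 5 genes held a C3H10T1/2-only peak in the body, while 2 of the 31 genes of the list did. Such a peak lay in 1.82% of all genes and 10.9% of those of at least 100 kb, so 0 of 5 is near the background. Of the 37 genes of lipid and insulin metabolism, Lrp1, a lipoprotein receptor, alone held a site (2.70%, 0.0684 to 14.2; median length 58.3 kb).

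The GATA list, with a median of 51.1 kb, had 5 of 32 genes with a site (15.6%, 5.28 to 32.8): Trps1, Zfpm2, Mecom, Tek and Vwf. All 5 hosts were among the 10 genes of the list that are at least 100 kb long. Trps1 encodes a GATA-type zinc finger repressor, and its 2 sites lay at 50666036 to 50666176 and 50698745 to 50698829 on chromosome 15. The gene also held a shared peak and a C3H10T1/2-only peak, the latter 63 bases from the first site, so both lines had peaks in the same stretch of Trps1. Zfpm2 encodes FOG2, a cofactor that binds GATA proteins, and held 2 sites, at 40824908 to 40825011 and 40913414 to 40913622 on chromosome 15, with the nearest C3H10T1/2 peak 1463 kb away. Mecom encodes a zinc finger factor of blood stem cells, Tek the angiopoietin receptor and Vwf the clotting protein von Willebrand factor of endothelium, and each held 1 site. The gene of GATA2 itself and those of the other GATA factors on the list held none.

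Bone, cartilage and muscle factors had 5 of 34 matched genes (of 36 symbols) with a site (14.7%, 4.95 to 31.1; median 26.6 kb), among them Runx2, Hdac4, Sox5 and Myocd. Of the 5 hosts, 4 were among the 9 genes of this list that are at least 100 kb long. Runx2 commits cells to bone, Hdac4 restrains it in cartilage, Sox5 is a cartilage factor and Myocd drives smooth muscle genes. The site of Runx2 lay 172 kb from the gene's lower coordinate, and the C3H10T1/2-only peak in the same gene 92.1 kb from it. Wnt signalling had 2 of 40 genes (5%, 0.611 to 16.9; median 55.9 kb), the secreted antagonists Sfrp1 and Dkk2. BMP and TGF-beta signalling had 0 of 40 genes (0 to 8.81%; 3 counts of 40, another limit for a count of 0, are 7.5%), at a median of 65.1 kb, and 5 of its genes held a C3H10T1/2-only peak. The difference between those counts was not tested.

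Lists of signalling and cell contact genes gave these counts. Of the axon guidance genes, which are long (median 242 kb), 8 of 37 held a site (21.6%, 9.83 to 38.2). These were the secreted cues Sema3a, Sema3c and Ntn1, the receptors Epha4, Plxna4, Unc5b and Unc5c, and Ntng1, which encodes a membrane-anchored netrin relative. Sema3a held 3 sites on chromosome 5, the last of them, at 13591321 to 13591419, 8 bases below the C3H10T1/2 peak at 13591428 to 13591551. Cell adhesion had 5 of 42 genes (11.9%, 3.98 to 25.6; median 196 kb), with the cadherin family genes Fat4 and Pcdh7, the integrin gene Itga8, the junction scaffold gene Magi1 and Ncam1. Genes of the actin cytoskeleton and the small GTPases that act on it had 6 of 42 (14.3%, 5.43 to 28.5; median 106 kb), and all 6 encode regulators of small GTPases: Arhgap10, Arhgap24, Arhgap26, Arhgef3, Dlc1 and Tiam2. Receptor tyrosine kinase and MAPK signalling had 3 of 40 (7.5%, 1.57 to 20.4; median 65.0 kb), namely Egfr, its relatives' ligand gene Nrg1 and the kinase gene Mapk10. Cyclic nucleotide signalling had 4 of 38 (10.53%, 2.94 to 24.8; median 122 kb), the phosphodiesterase genes Pde1a and Pde4d, the anchoring protein gene Akap6 and the kinase gene Prkce.

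Nuclear receptors had 6 of 38 genes with a site (15.8%, 6.02 to 31.3; median 67.4 kb), among them Pparg, the estrogen receptor gene Esr1, the retinoic acid receptor gene Rarb, Rora and Nr6a1. All 6 hosts were among the 13 receptor genes of at least 100 kb. The site of Esr1 lay 6.96 kb from the gene's start and that of Rarb in a gene that also held 3 C3H10T1/2-only peaks. Chromatin regulators had 6 of 42 (14.3%, 5.43 to 28.5; median 100.4 kb), among them Hdac4 and Hdac9, the Polycomb partner gene Jarid2 and the acetyltransferase gene Kat2b. Another was Cwc22, which acts in splicing and was placed on that list with its peaks known. The 6 of this list and the 61 of 608 genes over all lists include this gene, picked from these data. Extracellular matrix genes had 4 of 40 (10%, 2.79 to 23.7; median 59.4 kb): Col14a1, the decorin gene Dcn, the laminin gene Lama2 and the nidogen gene Nid1. The control lists gave 3 of 42 synapse genes (7.14%, 1.498 to 19.5; median 489 kb), among them Dlg2 and Sorcs1, and 0 of 40 ribosomal protein genes (0 to 8.81%), at a median of 3.69 kb.

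**Figure D5:**
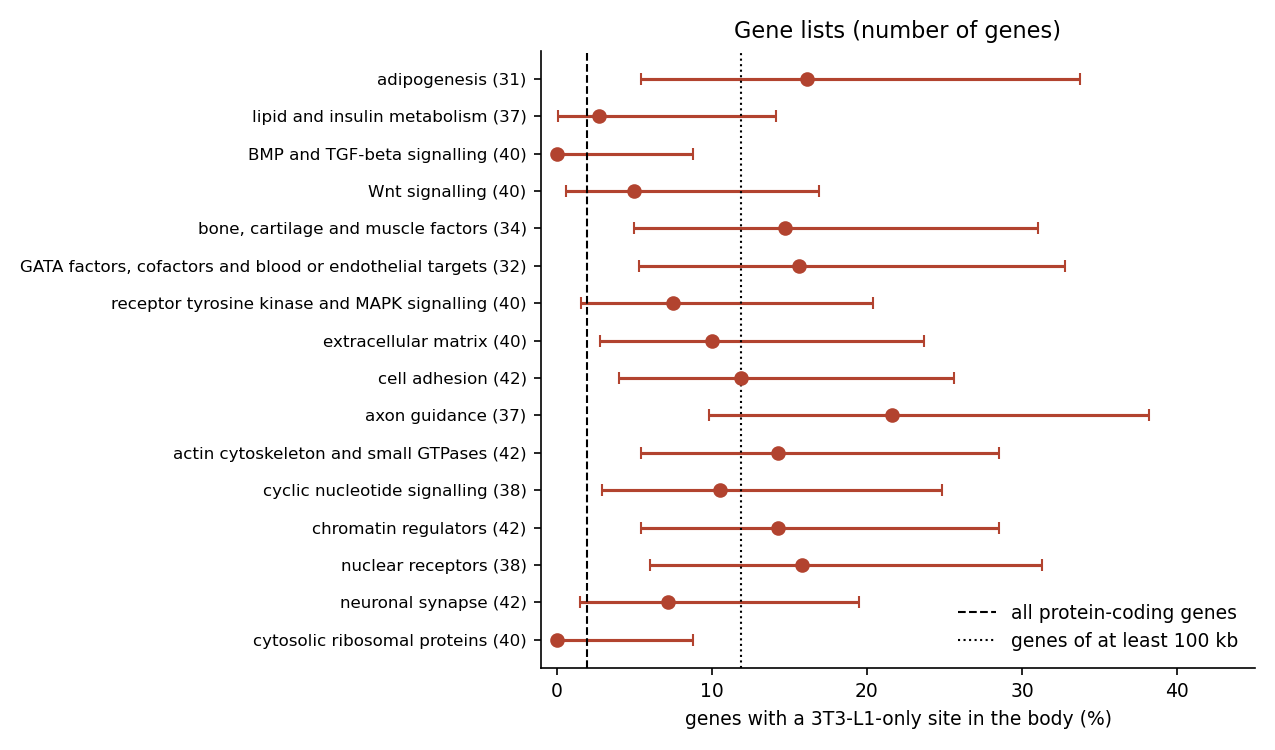
Percent of the genes of each list with a 3T3-L1-only site in the body (points) with the 95% exact interval over genes (lines), and the number of genes of the list in brackets. The dashed line marks all protein-coding genes (1.97%) and the dotted line those of at least 100 kb (11.9%), and the points run from 0% to the 21.6% of axon guidance genes.

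Close groups of sites were uncommon outside Cwc22. Another site of the same kind lay within 1 kb of 14 sites, within 10 kb of 46 and within 100 kb of 174, and the median distance to the next was 616 kb. The closest pair lay in E030030I06Rik on chromosome 10, with centres 203 bp apart and widths of 52 and 55 bp. Pairs under 1 kb also lay in Pkig, the alcohol dehydrogenase gene Adh6b, Frmpd4, Sugct and Syn3. Adh6b is 17.4 kb long, so its 2 sites gave it 11.5 per 100 kb, the highest density among hosts with 2 or more sites. A long noncoding RNA gene overlapped 35 of the sites, among them those of Hoxd8, Nr6a1 and Ncam1, and a pseudogene overlapped 1, in Uck2. Such overlaps were not compared with those of other peaks or of gene bodies at large. The genes of these pairs and overlaps, and the neighbours Twist1, Timp3 and Dnm3os, were chosen after their positions were seen.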

How the data were processed

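GATA2 ChIP-seq and input libraries of 3T3-L1 and C3H10T1/2 cells stand behind 1 deposited peak list per line. The authors' files give chromosome, start and end in bp, with no count, score or p column. The submitters' processing notes name the build mm10 and, without roles, MACS2, Bowtie2, CASAVA 1.8, SAMtools and bedtools. How libraries were combined and the peak threshold are not given in the sources used here, and both can change which peaks are listed and how wide they are.

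Positions are printed counted from 1. Genes were 21631 protein-coding entries of the RefSeq table of GRCm38.p6 on chromosomes 1 to 19 and X; exon and intron positions were not analysed here. Strand came from the promoter table. A peak in several genes (3 of the 549 sites) was given to the shortest for distances and to each for counts of host genes. Analysis used Python 3.11.15, pandas 2.3.3 and SciPy 1.17.1. Shares have 95% exact Clopper-Pearson intervals and were compared by two-sided Fisher's exact tests, adjusted by the Benjamini-Hochberg method over 6 planned tests, called at 0.05; 2 tests of host length were added after the data were seen. Class assignment and test were checked on simulated peaks. The planned motif test needed a genome and was not run. The planned test of nearness to the start needed strand for 80% of hosts, so the outer 25% at either end was used.

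Named genes were the 10 with most sites, the 10 sites nearest a start and the 10 widest, hosts on the 16 lists, sites at the rule's limits and the 10 hosts with most sites that also held other peaks. The sites and lists were chosen with earlier results of these data known. A few genes that this rule names are not reported here.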

Additional observations from a re-analysis of the deposited data

How the results depend on the processing

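Alternatives were an overlap of 50% of both peaks, centres within 1 kb, peaks of at least the median width, dense runs left out, whole peaks inside genes, all RefSeq genes, and other windows and width limits. With peaks of at least the median width the counts fell to 235 sites, 206 host genes and 25 listed genes; under the other alternatives they were 547 to 706, 425 to 603 and 61 to 69. Against shared peaks, the difference within 10 kb of a boundary was -11.8 points with the wider peaks (adjusted exact p = 0.0362), and within 1 kb it was -4.76 points (0.00782). Both passed the test that the 10 kb difference of -8.42 points did not, with p-values adjusted within each setting only. Against peaks outside genes, the share with a C3H10T1/2 peak nearby turned from -2.45 points at 100 kb to 0.214 points at 10 kb (adjusted exact p = 0.883). The difference in long hosts against shared peaks was 11.1 to 20.2 points and passed in each setting run. No other test changed its call or direction. The cause of these changes was not tested. No paired analysis was possible because each line has 1 list and no value per library. Leaving out replicates, the 25% of the gene nearest the start and the motif alternatives were not run for want of values per library, strand and a genome. Unknown depth limits what absence from the C3H10T1/2 list shows.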

Other observations

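Other hosts with 2 sites, chosen after their values were seen, included Bckdhb, which encodes a subunit of the branched-chain keto acid dehydrogenase, with sites on chromosome 9 at 84057297 to 84057377 and 84094190 to 84094336, and Nfia, a factor of brown fat and glial cells. They also included Angpt1, which encodes the ligand of the receptor made from the listed host Tek, Gpc3, a glypican gene, and Chrdl1, which encodes a BMP antagonist. Angpt1 held its sites at 42577704 to 42577817 and 42593796 to 42593984 on chromosome 15. Angpt1 and Chrdl1 each held 1 C3H10T1/2-only peak as well, and Bckdhb, Nfia and Gpc3 none.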
